A study of Mus musculus with 2 samples.

Results

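Primary tumour fibroblasts were the 180 cells of the tumour library that were chosen by the UMI counts of collagen genes. A UMI is a molecular barcode that counts 1 captured transcript. A member had over 200 detected genes and at most 5% of its UMIs in mitochondrial genes. It had at least 10 UMIs summed over Col1a1, Col1a2 and Col3a1, at most 1 UMI of the leukocyte gene Ptprc, at most 1 UMI of the endothelial genes Pecam1 and Cdh5 together, and fewer than 30 UMIs of the keratins Krt8 and Krt18 together. The fibroblasts made up 1.80% (exact 95% interval 1.55 to 2.08) of the 9989 tumour cells that passed the limits on genes and mitochondrial UMIs. Within them, 78 cells with at least 10 UMIs of Acta2 and Tagln, called Acta2/Tagln-high here, were compared with the 102 others. The name fibroblast stands here for every cell that passed this rule.

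Fibroblasts build the fibrous matrix of a tumour from collagens I and III, and in mammary tumours they are a main source of cytokines and growth factors. Some take on a contractile state, the myofibroblast, with smooth muscle actin (Acta2), transgelin (Tagln), myosin light chain and tropomyosins. Others resemble the fibroblasts of vessel adventitia and fascia, which make decorin, complement proteins and chemokines. Pericytes and vascular smooth muscle cells, which wrap blood vessels, also make Acta2 and collagens.

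The series holds single-cell RNA libraries of primary tumors and of paired lymph nodes from 6 C57BL/6J mice, 1 library per tissue. The labels name the tumours EO771-HEVM3, where the study's text on these cells says EO771. HEVM3 is a derivative of the EO771 mouse breast cancer line that the study selected over 3 rounds for cells that reach the lung by way of high endothelial venules of lymph nodes. The study methods describe implantation in the fourth mammary fat pad of mice 5 to 6 weeks old, and the labels give no genotype, agent or time for these libraries. All 6 mice were pooled without a label for the mouse, so no test was run between groups of cells, and every interval covers counting error only. The tumour library had 12427 cells and 173317475 UMIs. The fibroblasts had 1332427 UMIs in all, with 666 in the shallowest cell, a median of 6036.5 and 31898 in the deepest. Scrublet marked 6 fibroblasts as doublets, and the barcodes of 2 fibroblasts also occurred in the lymph node library, with which the tumour library shared 47 barcodes.

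The cells were checked against the marker genes given with the rule. Col1a1, a chain of collagen I used in the rule, had a UMI in 179 of 180 cells, and Col3a1, the chain of collagen III, in 174. Postn, a matricellular protein of activated fibroblasts that the rule did not use, had a UMI in 158 cells and stood at 1363 counts per 1000000 summed UMIs (CPM), against 0.394 CPM in 5244 keratin-high cells and 2.89 CPM in 1088 leukocytes. Keratin-high cells had at least 30 UMIs of Krt8 and Krt18, leukocytes at least 2 of Ptprc, and both fewer than 10 collagen UMIs. Dcn, the proteoglycan decorin, did not set the fibroblasts apart from keratin-high cells. It stood at 1048 CPM in the fibroblasts and at 1054 CPM in keratin-high cells, and 73 fibroblasts had no Dcn UMI. After thinning each cell to 1000 UMIs, the share with a Dcn UMI was 37.5% (30.4 to 45.1) in the fibroblasts and 59.2% (57.8 to 60.5) in keratin-high cells, at median depths of 6036.5 and 20256 UMIs. One fibroblast below 1000 UMIs was left out. Without thinning, 59.4% of fibroblasts had a Dcn UMI.

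The fibroblasts also held cells with pericyte genes. Rgs5, a regulator of G protein signalling that marks pericytes, had at least 5 UMIs in 47 of the 180 cells, and 32 of these had no Dcn UMI. Dcn had at least 5 UMIs in 58 cells, of which 52 had no Rgs5 UMI. Only 4 cells reached 5 UMIs of both genes, so the cells rich in Dcn and those rich in Rgs5 were largely different cells. Pdgfrb, a receptor of both fibroblasts and pericytes, had a UMI in 127 cells, and Pdgfra, a receptor of fibroblasts, in 43.

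Markers of other cell types were present at low levels, with exceptions. Ptprc, which the rule limits, had 1 UMI in each of 4 fibroblasts, and the 7 leukocyte markers summed to 109 CPM (6 of 7 with a UMI) against 6240 CPM in leukocytes. The 8 macrophage markers summed to 105 CPM (8 of 8 with a UMI) against 3348 CPM. The 10 endothelial markers summed to 402 CPM, with 7 of 10 detected and a UMI in 94 of 180 fibroblasts, against 7562 CPM in 38 endothelial cells. Most of these were of Flt1, at 381 CPM, whereas Cdh5, which the rule limits, Kdr and Cldn5 had no UMI. The 10 epithelial and cancer markers summed to 443 CPM, with 8 of 10 detected, against 4448 CPM in keratin-high cells.

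Just inside the collagen limit, 14 members had 10 to 12 collagen UMIs, and just outside it 6 cells had 7 to 9. Of the cells that met all other limits, 3043 had no collagen UMI and 151 had 1 to 9. At the keratin limit, 8 members had 20 to 29 Krt8 and Krt18 UMIs, and 7 cells failed by this limit alone at 30 to 40.

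Acta2 and Tagln were spread widely over the fibroblasts. Both genes together had no UMI in 52 cells, 1 to 4 in 31 cells, 5 to 9 in 19 cells, 10 to 14 in 13 cells and at least 50 in 26 cells. The median was 31 UMIs in the Acta2/Tagln-high cells, with a highest value of 307, and 0 in the others. The limit of 10 UMIs therefore cut a continuous range rather than a gap. Acta2 (ENSMUSG00000035783; GRCm38 chromosome 19, 34241090 to 34255590, minus strand) stood at 2784 CPM (2667 to 2905) against 173 CPM (141 to 211), and Tagln (ENSMUSG00000032085; chromosome 9, 45929619 to 45936058, minus strand) at 2535 against 184 CPM. Both differences follow from the way the cells were divided. The Acta2/Tagln-high cells made up 43.3% (36.0 to 50.9) of the fibroblasts.

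The Acta2/Tagln-high cells were also deeper, with a median of 7988 UMIs against 4608.5 in the others. Across the 180 cells, all from 1 library, the CPM of Acta2 and Tagln had a Spearman correlation of 0.41 with the UMIs of the cell. Their median mitochondrial share was 1.96% against 2.36%, and both sides had a median of 47.5 collagen UMIs. List medians after thinning cells to 2000 UMIs are given beside those of the full counts for some lists. Thinning kept all 78 Acta2/Tagln-high cells and 87 of the 102 others, since shallower cells were left out.

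**Figure D1:**
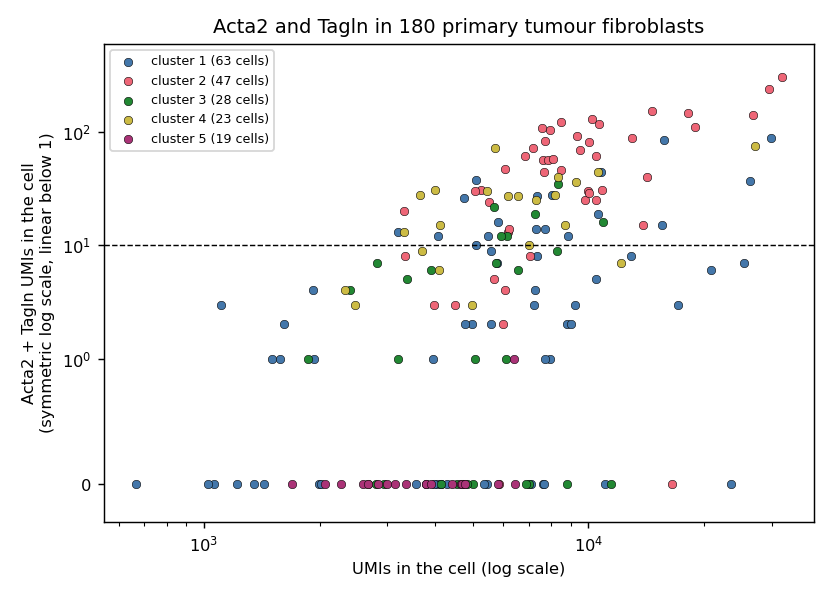
Each point is 1 of the 180 fibroblasts, with its UMIs on the x axis (log scale), its Acta2 plus Tagln UMIs on the y axis (symmetric log scale) and its cluster in colour. The dashed line marks 10 UMIs, above which 78 cells lie, among them 38 of the 47 cells of cluster 2 and none of the 19 cells of cluster 5.

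Contractile genes were mostly higher on the high side. Of 4022 genes with at least 50 UMIs over the fibroblasts, leaving out Acta2 and Tagln, 185 (4.6%) were at least 2-fold higher in the Acta2/Tagln-high cells and 235 (5.84%) at least 2-fold lower, and the median log2 ratio was 0.03. Of 23 contractile genes at that depth, 15 were at least 2-fold higher and none at least 2-fold lower, with a median log2 ratio of 1.66. After thinning each cell to 2000 UMIs the median was 1.59, over 17 genes.

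Myh11, the heavy chain of smooth muscle myosin, had the highest ratio of the genes named by rule. It had 71 UMIs in 20 of the 78 Acta2/Tagln-high cells and 3 UMIs in 1 of the 102 others, a log2 ratio of 3.91 (2.52 to 6.44). Most Acta2/Tagln-high cells therefore had no Myh11 UMI. Its ratio was larger when members needed at least 20 collagen UMIs, as given below. Myl9, the regulatory light chain of that myosin, had UMIs in 61 of 78 cells at 433 CPM and in 14 of 102 at 30.0 CPM, a log2 ratio of 3.81 (3.15 to 4.65). Lmod1, which nucleates actin filaments in smooth muscle, stood at 93.9 against 7.07 CPM, a log2 ratio of 3.57. Actg2, the enteric smooth muscle actin, had a log2 ratio of 3.04 (4.51 without Rgs5-rich cells). Ppp1r14a, an inhibitor of myosin phosphatase, had a log2 ratio of 3.22, which was also larger without Rgs5-rich cells, as given below. The tropomyosin genes had UMIs in more of the Acta2/Tagln-high cells at their greater depth, Tpm1 in 77 of 78 against 70 of 102 and Tpm2 in 76 against 38.

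The ratios of the more widely used contractile genes were smaller. Tpm1 stood at 1790 against 373 CPM, a log2 ratio of 2.26, and Actn1, which crosslinks actin, at 784 against 191 CPM, a log2 ratio of 2.03. Vcl, which ties actin to adhesions, had a log2 ratio of 1.80 and Cnn2, a calponin, of 1.66. Myl6 (0.93), Cald1 (0.91) and Myh9 (0.85) lay under 2-fold on the log2 scale. Csrp2 was the contractile gene with the lowest log2 ratio, at -0.75. All 4 smooth muscle genes at that depth, Myh11, Actg2, Lmod1 and Des, were at least 2-fold higher, and all 4 are also in the contractile list. Cnn1, a calponin of smooth muscle, had 18 UMIs in 10 Acta2/Tagln-high cells and none in the others. That is 4.43-fold higher when the others are set to a floor of 3 counts over the group.

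Genes outside the contractile list stood beside them. Sox11, a transcription factor of development, had 79 UMIs in 22 Acta2/Tagln-high cells and 5 UMIs in 3 others, and 24 of its UMIs lay in 1 cell (log2 ratio 3.42, or 2.92 without that cell). Ankrd1, a nuclear ankyrin repeat protein of muscle and a target of mechanical signalling, had a log2 ratio of 3.05 (4.70 with fewer than 10 keratin UMIs allowed, and 102 CPM in keratin-high cells), and Nexn, an actin-binding protein, of 3.14. F3, tissue factor, stood at 236 against 35.3 CPM, a log2 ratio of 2.71. Of its 201 UMIs, 60 lay in 1 cell, and the log2 ratio was 2.19 without that cell. Plpp1, a lipid phosphate phosphatase, stood at 80.9 against 12.4 CPM. Flt1, the VEGF receptor better known from endothelium, stood at 591 against 97.2 CPM, with UMIs in 64 of 78 cells against 20 of 102.

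**Figure D2:**
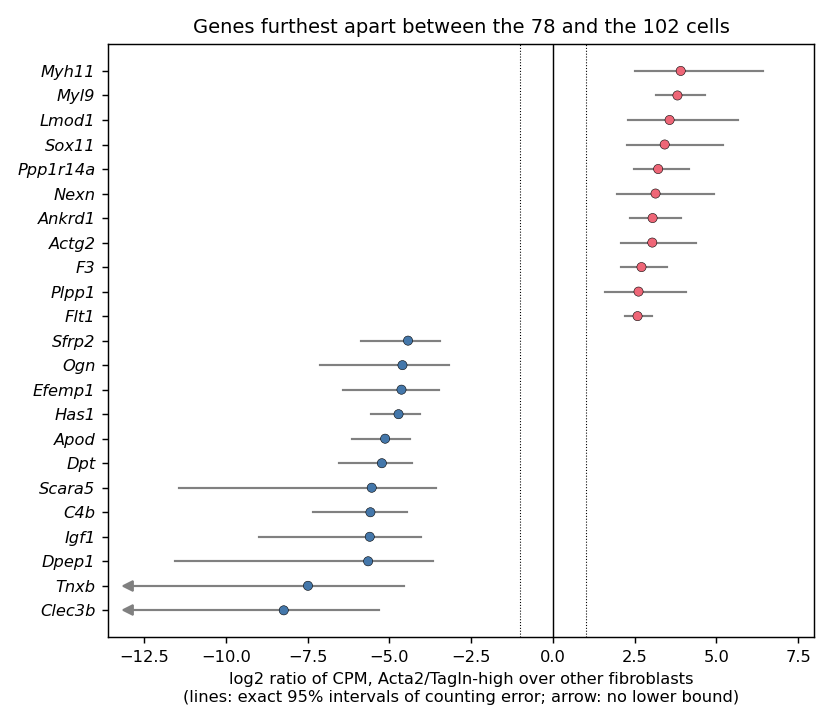
Genes with the highest and the lowest log2 ratios of CPM between the 78 Acta2/Tagln-high fibroblasts and the 102 others are shown as points, with lines for exact 95% intervals of counting error and dotted lines at 2-fold. Myh11 stood highest at 3.91, and Clec3b and Tnxb, with no UMI in the Acta2/Tagln-high cells, have no lower bound.

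The promoters of contractile genes are known for CArG boxes, binding sites of serum response factor. The box was searched as CC, then 6 bases that are each A or T, then GG, a pattern that reads the same on both strands. RefSeq promoter windows of 300 bases, from 250 before to 50 after a start site (GRCm38.p6), were at hand for 25 of the 29 genes in the contractile and smooth muscle lists. A box lay in 5 of their 28 windows, against 535 of 32851 windows of all genes (1.63%). The windows are shown for the 3 genes with a box that were at least 2-fold higher in Acta2/Tagln-high cells. The other genes with a box were Myl6, with a log2 ratio of 0.93, and Acta1, which had no UMI in the fibroblasts. No box lay in the windows of Lmod1, Ppp1r14a, Tpm1, Tpm2 or Actn1. In the printed windows the box is in capitals and the rest in lower case, each read 5′ to 3′ on the plus strand of its chromosome. Myl9 lies at chr2:156775214-156775513, with the box 161 bases before the start site, Vcl at chr14:20929148-20929447, with the box 227 bases before it, and Cnn2 at chr10:79988350-79988649, with the box 56 bases before it. A match describes these letters only, and binding was not measured.
Myl9: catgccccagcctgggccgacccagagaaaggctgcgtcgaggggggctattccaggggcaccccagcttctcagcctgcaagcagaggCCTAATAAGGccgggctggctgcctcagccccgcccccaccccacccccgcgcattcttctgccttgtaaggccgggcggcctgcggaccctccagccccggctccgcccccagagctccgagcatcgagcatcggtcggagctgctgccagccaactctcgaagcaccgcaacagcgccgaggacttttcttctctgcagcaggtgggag
Vcl: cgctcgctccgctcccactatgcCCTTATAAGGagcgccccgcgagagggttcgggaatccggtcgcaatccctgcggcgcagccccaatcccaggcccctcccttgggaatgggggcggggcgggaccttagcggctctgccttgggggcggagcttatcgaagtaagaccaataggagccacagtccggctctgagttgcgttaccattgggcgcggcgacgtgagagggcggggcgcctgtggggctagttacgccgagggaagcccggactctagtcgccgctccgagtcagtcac
Cnn2: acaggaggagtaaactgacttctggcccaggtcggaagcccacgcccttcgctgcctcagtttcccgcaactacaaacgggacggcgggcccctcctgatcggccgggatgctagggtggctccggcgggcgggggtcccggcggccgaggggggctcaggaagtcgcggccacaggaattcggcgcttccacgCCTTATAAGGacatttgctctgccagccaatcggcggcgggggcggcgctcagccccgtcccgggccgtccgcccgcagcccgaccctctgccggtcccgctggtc

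On the other side stood genes of adventitial fibroblasts. Of 13 adventitial genes at that depth, none was at least 2-fold higher in the Acta2/Tagln-high cells and 10 were at least 2-fold lower, with a median log2 ratio of -2.14 (-1.51 over 10 genes after thinning). Clec3b, the plasminogen-binding protein tetranectin, had 110 UMIs in 27 of the 102 other cells and none in the 78 Acta2/Tagln-high cells. That is 49.7-fold lower when the Acta2/Tagln-high cells are set to a floor of 3 counts over the group. The exact 95% bound on its log2 ratio was -5.31, a smaller difference than the floor gives. Dpt, a matrix protein that binds decorin, stood at 10.4 against 415 CPM, a log2 ratio of -5.23 (-6.54 to -4.31). Efemp1, a fibulin, had 5 UMIs in 2 cells against 100 UMIs in 31 cells. Pi16, a marker of adventitial and fascial progenitors, had 14 UMIs in 3 cells against 107 UMIs in 24 cells, a log2 ratio of -3.33. Of the 102 others, 24 to 48 had a UMI of each of these 4 genes, at a median of 4608.5 UMIs per cell, where a cell without a UMI may still express the gene. Anxa3 and Col15a1 were the listed genes nearest to no difference, with log2 ratios of 0.44 and -0.14.

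**Figure D3:**
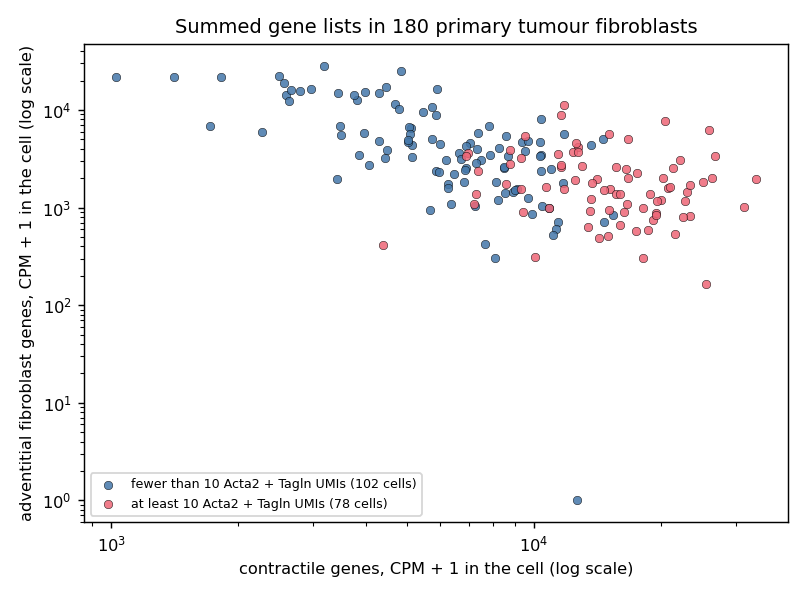
Each point is 1 of the 180 fibroblasts, with the summed CPM of the contractile genes (x axis) and of the adventitial genes (y axis), each plus 1 and on a log scale, coloured by Acta2 plus Tagln UMIs. The Acta2/Tagln-high cells had a median contractile level of 15365 CPM (4391 to 33565) and the others 6408 CPM (1027 to 15391), so the ranges overlapped.

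The level per cell of both lists showed the same arrangement. The summed adventitial genes had a median of 1590 CPM per cell (164 to 11155) in the Acta2/Tagln-high cells and 4014 CPM (0 to 28374) in the others. Across the 180 cells the contractile and adventitial sums had a Spearman correlation of -0.59. The points share a library and are shares of the same total, and the correlations of both sums with the UMIs of the cell were 0.39 and -0.30.

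Small leucine-rich proteoglycans, which space collagen fibrils, were lower in the Acta2/Tagln-high cells, with 4 of 6 at least 2-fold lower and a median log2 ratio of -2.49 (-1.81 over 4 genes after thinning). Dcn stood at 209 against 2184 CPM, Lum, lumican, at 17.0 against 228 CPM, and Ogn, osteoglycin, at 3.91 against 110 CPM. Prelp had a log2 ratio of -1.60. Aspn, asporin, with a log2 ratio of -0.86, and Bgn, biglycan, at 2778 against 3322 CPM, lay under 2-fold. Bgn was the member with UMIs in the most fibroblasts, 173 of 180.

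The remaining genes with the lowest ratios had several functions. Tnxb, tenascin X, had 66 UMIs in 25 other cells and none in the Acta2/Tagln-high cells, which is 29.8-fold lower at the same floor. The exact bound on its log2 ratio was -4.56, again a smaller difference. Igf1, the growth factor, had 2 UMIs against 89. Dpep1, a dipeptidase, and Scara5, a scavenger receptor, had 1 UMI each against 55 and 51. Apod, a lipocalin, stood at 15.7 against 569 CPM, Has1, a hyaluronan synthase, at 22.2 against 603 CPM, and Sfrp2, a modulator of Wnt signalling, at 9.13 against 210 CPM. C4b, a complement component, stood at 6.52 against 343 CPM, a value that is uncertain because its near-identical copy C4a can share reads.

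Inflammatory and complement genes were more often lower than higher. Of 27, 11 were at least 2-fold lower in the Acta2/Tagln-high cells and 1 at least 2-fold higher, with a median log2 ratio of -0.76. C3, the central complement protein, stood at 28.7 against 489 CPM, Cxcl12, a chemokine that retains CXCR4-positive cells, with 19 against 170 UMIs, and Cxcl14 at 80.9 against 915 CPM. Il6, the cytokine, stood at 254 against 636 CPM. Ptx3 and Ccl11 had log2 ratios of -2.93 and -3.38. Cxcl1 had a log2 ratio of -0.31, Cxcl2 of 0.09, Ccl2 of -0.43 and Ccl7 of -0.35. Cxcl5, a neutrophil chemokine and the only listed gene at least 2-fold higher, rested on few cells, with 336 UMIs in 16 fibroblasts and 156 of them in 1 cell (log2 ratio 3.37, or 2.44 without that cell). Csf1, the macrophage growth factor, stood at 660 against 350 CPM.

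Growth factors and their binding proteins were also more often lower, with a median log2 ratio of -0.81. Of 16, 7 were at least 2-fold lower in the Acta2/Tagln-high cells, among them Igfbp4 (log2 ratio -3.26), Igfbp5 (-3.26), Vegfd (-4.04) and Gas6 (-2.38). Angpt2, which destabilises vessels, was the 1 gene at least 2-fold higher, at 86.1 against 31.8 CPM. Pdgfa stood at 341 against 175 CPM. Vegfa, the main angiogenic factor, was close on both sides, at 249 against 277 CPM with a log2 interval of -0.47 to 0.16.

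**Figure D4:**
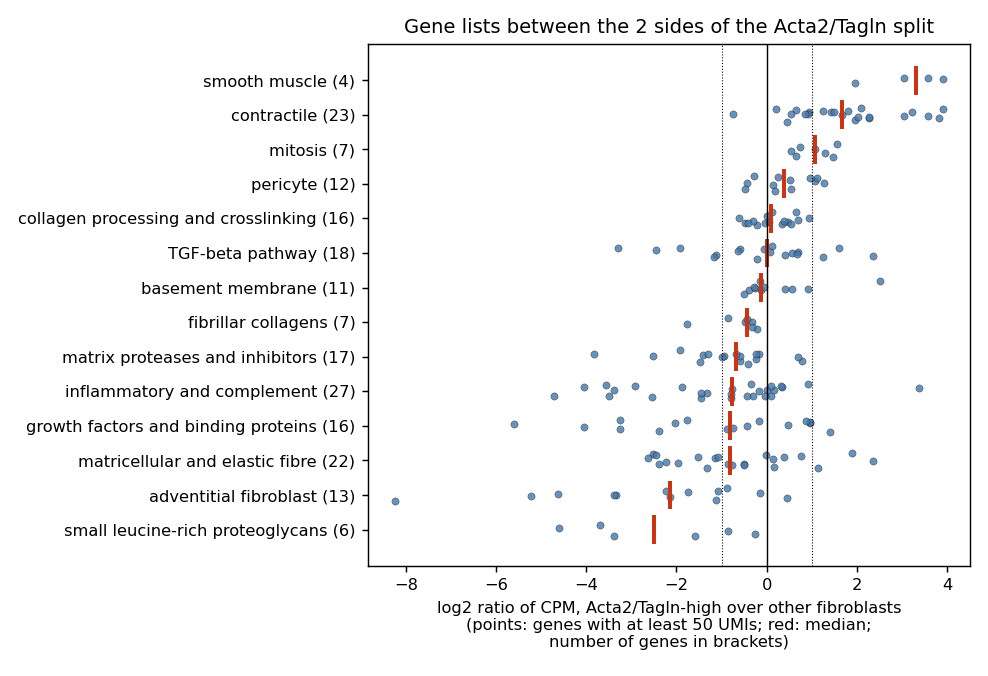
Each point is a gene with at least 50 UMIs over the fibroblasts, at its log2 ratio of CPM between the 78 Acta2/Tagln-high cells and the 102 others, red bars mark the median of each list and dotted lines mark 2-fold. The contractile list had its median at 1.66 and the adventitial list at -2.14, while collagen processing genes lay between -0.61 and 0.94.

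The fibrillar collagens differed less. All 7 at that depth had log2 ratios between -1.76 and -0.22, with a median of -0.44, and only Col3a1 passed 2-fold, at 1378 against 4675 CPM. Col1a1 stood at 2982 (2861 to 3107) against 4198 CPM. The rule used Col1a1, Col1a2 and Col3a1 to choose both sides. None of 16 genes that process and crosslink collagen passed 2-fold, and their median was 0.09, with the lysyl oxidase Loxl2 highest at 0.94 and the collagen chaperone Serpinh1 at 0.38. Among 11 basement membrane genes, Nid2, a nidogen, was the only one past 2-fold, with 50 UMIs against 6. The matrix proteases and their inhibitors had 6 of 17 genes at least 2-fold lower and none higher, with Mmp3 at 19.6 against 286 CPM, Mmp2 at 104 against 398 CPM and Adamts5 at 49.6 against 290 CPM.

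Matricellular and elastic fibre genes went both ways. Of 22, 10 were at least 2-fold lower and 3 at least 2-fold higher in the Acta2/Tagln-high cells. The higher genes were Ccn2, a connective tissue growth factor, at 1579 against 307 CPM, Thbs1, a thrombospondin that activates latent TGF-beta, at 3403 against 919 CPM, and Tnc, tenascin C, at 635 against 288 CPM. The lower genes included Spp1, osteopontin, at 411 against 1611 CPM, Fn1, fibronectin, at 2214 against 4873 CPM, and Eln, elastin, at 13.0 against 77.7 CPM. The median log2 ratio of the list was -0.81 in the full counts and 0.09 over the 14 genes left after thinning, with 165 cells, so the direction of the list as a whole was not stable.

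The TGF-beta pathway, which drives the myofibroblast state, had a median log2 ratio of 0.00 over 18 genes. Among the ligands, Tgfb3 stood at 130 against 42.4 CPM (log2 ratio 1.60) and Inhba, the activin A subunit, at 806 against 339 CPM (1.25), while Tgfb1 (-0.59) and Tgfb2 (0.12) lay under 2-fold. Among the receptors, Tgfbr2 stood at 49.6 against 191 CPM and Tgfbr3, betaglycan, at 11.7 against 120 CPM, and Tgfbr1 was close on both sides. Ccn2, given above, is also a target of the pathway. Of 9 Wnt, Hedgehog and Notch genes, Wnt5a, a ligand of non-canonical Wnt signalling, was the 1 at least 2-fold higher, at 257 against 90.1 CPM, and Sfrp1 (-2.81) and Sfrp2 were lower. Mesenchymal transcription factors had 3 of 17 genes at least 2-fold lower and none higher, with a median of -0.17, and interferon response genes 2 of 12 higher and none lower, with a median of 0.60.

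Mitotic genes were somewhat higher in the Acta2/Tagln-high cells, with 4 of 7 at least 2-fold higher and a median log2 ratio of 1.08. Top2a stood at 193 against 68.9 CPM, with UMIs in 25 of 78 cells, at their greater depth, and 15 of 102. The summed mitotic genes had a median of 164 CPM per cell (0 to 6396) in the Acta2/Tagln-high cells and 0 CPM (0 to 5131) in the others. Their pooled sums, 922 against 442 CPM, lay above the upper quartiles per cell of 485 and 309 CPM. The number of mitotic genes past 2-fold was 1 when the limit for Acta2 and Tagln was 20 UMIs. Genes that respond to tissue dissociation and heat were somewhat lower, with 3 of 13 at least 2-fold lower, a median of -0.76, and Egr1 at 882 against 2103 CPM.

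Pericyte genes were somewhat higher over all Acta2/Tagln-high cells, with Rgs5 itself close on both sides. The summed list had a median of 1678 CPM per cell in the Acta2/Tagln-high cells and 518 CPM in the others, and the pooled sums stood closer, at 3131 against 2430 CPM. Within the 47 Rgs5-rich cells and within cluster 2 the order turned, with 6465 against 8532 CPM and 3424 against 4938 CPM. It did not turn in cluster 1, at 1057 against 524 CPM, or in cluster 3, at 12412 against 7575 CPM. Among the 133 cells with fewer Rgs5 UMIs the sums stood at 1154 against 680 CPM. Cluster 4 was close on both sides, at 1890 against 1976 CPM. Across the 180 cells the contractile and pericyte sums had a Spearman correlation of 0.43. Of 12, 3 were at least 2-fold higher in the Acta2/Tagln-high cells, namely Rgs4, Cspg4 and Mcam, with log2 ratios of 1.07, 1.11 and 1.27, and the median was 0.39. Rgs5 stood at 1215 against 1113 CPM, a log2 ratio of 0.13 (-0.02 to 0.27). Of the 47 cells with at least 5 Rgs5 UMIs, 25 were Acta2/Tagln-high, as were 10 of the 58 cells with at least 5 Dcn UMIs. Leaving these 47 cells out kept the contractile median at 1.64 and the adventitial median at -2.44, and moved that of the inflammatory genes to -0.95. Within the 47 cells, the inflammatory sums stood at 8739 against 6914 CPM, against a log2 ratio of -0.77 in the rest. In the same 47 cells the summed contractile genes stood at 15093 CPM in 25 cells and 8674 CPM in 22, and the adventitial genes at 1756 and 2030 CPM. Among the 133 cells with fewer Rgs5 UMIs they stood at 16609 against 6275 CPM and at 2191 against 6257 CPM. The contractile sums thus differed in both sets of cells, and the adventitial sums had a log2 ratio of -0.21 in the Rgs5-rich cells and -1.51 in the rest.

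Leiden clustering of the 180 cells gave 5 clusters, which are described by number since the same cells and counts that made the clusters are used to describe them. Cluster 1 (63 cells) was led by Thbs4, a thrombospondin, Spp1 and Cilp, a cartilage matrix protein, with Spp1 at 2439 CPM against 89.4 CPM in the remaining fibroblasts. It held 5 of the 6 fibroblasts marked as doublets, and its epithelial and cancer markers stood at 857 against 216 CPM in the remaining fibroblasts and its haemoglobin genes at 312 against 25.6 CPM (185 CPM without the cell that held 60 of 147 UMIs). Cluster 2 (47 cells) was led by Cd274, the checkpoint ligand PD-L1, with 42 UMIs in 12 cells, and by Plcxd2, Fabp4 and Sox11, with Lmod1 and Myh11 also among its 10 leading genes. Its summed contractile genes stood at 17954 CPM. Cluster 3 (28 cells) was led by Col10a1, with 22 UMIs in 7 cells, and held Abcc9, a potassium channel subunit of pericytes, among its leading genes, with Rgs5 at 5201 CPM, Notch3 at 389 CPM and the summed pericyte genes at 8940 CPM. Of the 47 cells with at least 5 Rgs5 UMIs, 22 lay in cluster 3, 18 in cluster 2, 4 in cluster 4 and 3 in cluster 1. Cluster 2 had summed pericyte genes at 3612 CPM, and 3 of its cells had at least 5 Dcn UMIs. Cluster 4 (23 cells) was led by Rnf185 and Gbe1 with small counts, and no listed gene was among its 10 leading genes. Cluster 5 (19 cells) was led by Cxcl13, a B cell chemokine, and Wnt10b, with Scara5 and Clec3b among its leading genes, Dcn at 8579 CPM and Pi16 with 60 UMIs. Cxcl13 had 32 UMIs in 7 of its cells and Wnt10b 6 UMIs in 5.

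The Acta2/Tagln-high cells were unevenly spread over the clusters. They made up 80.9% (66.7 to 90.9) of cluster 2, 69.6% (47.1 to 86.8) of cluster 4, 28.6% (17.9 to 41.3) of cluster 1 and 21.4% (8.30 to 41.0) of cluster 3. Cluster 5 had none of 19 cells, which allows a share of up to 17.6%, and a lower median depth of 3771 UMIs against 8069 in cluster 2. Cluster 5 had the highest summed adventitial genes, at 17227 CPM, and inflammatory and complement genes, at 28698 CPM, and the lowest contractile genes, at 3169 CPM. Its dissociation and heat shock genes were also the highest of the 5 clusters, at 17213 CPM against 8685 CPM in the remaining fibroblasts. Its Ptx3 stood at 2311 CPM and its C3 at 1896 CPM. Cluster 3 had the highest fibrillar collagens, at 23848 CPM, and Postn, at 3293 CPM.

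The contractile genes were also higher on the high side within each of clusters 1 to 4. Over all fibroblasts their sums stood at 16045 against 6810 CPM. In cluster 1 the summed contractile genes stood at 10629 CPM in 18 Acta2/Tagln-high cells and 6924 CPM in 45 others, and in cluster 2 at 19365 CPM in 38 cells and 8009 CPM in 9. In cluster 3 the log2 ratio was 0.43, with 6 Acta2/Tagln-high cells and 22 others, and in cluster 4 it was 0.84, with 16 and 7. The fibrillar collagens had log2 ratios of -0.56, -0.59 and -0.59 in clusters 1 to 3 and 1.06 in cluster 4. The adventitial sums had log2 ratios of -0.46, -0.95 and -0.27 in clusters 1 to 3 and 0.47 in cluster 4, where the sign turned for both lists. The 7 others of cluster 4 held 60 adventitial UMIs and 215 UMIs of fibrillar collagens. The proteoglycan sums had log2 ratios of -0.66, -0.52 and -0.52 in clusters 1 to 3 and 0.29 in cluster 4, all under 2-fold. The inflammatory and complement sums had log2 ratios of -0.99 and -0.13 in clusters 1 and 2 but 0.31 and 0.48 in clusters 3 and 4, so their direction was not the same in every cluster. Cluster 5 lay wholly on the other side and has no such value.

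**Figure D5:**
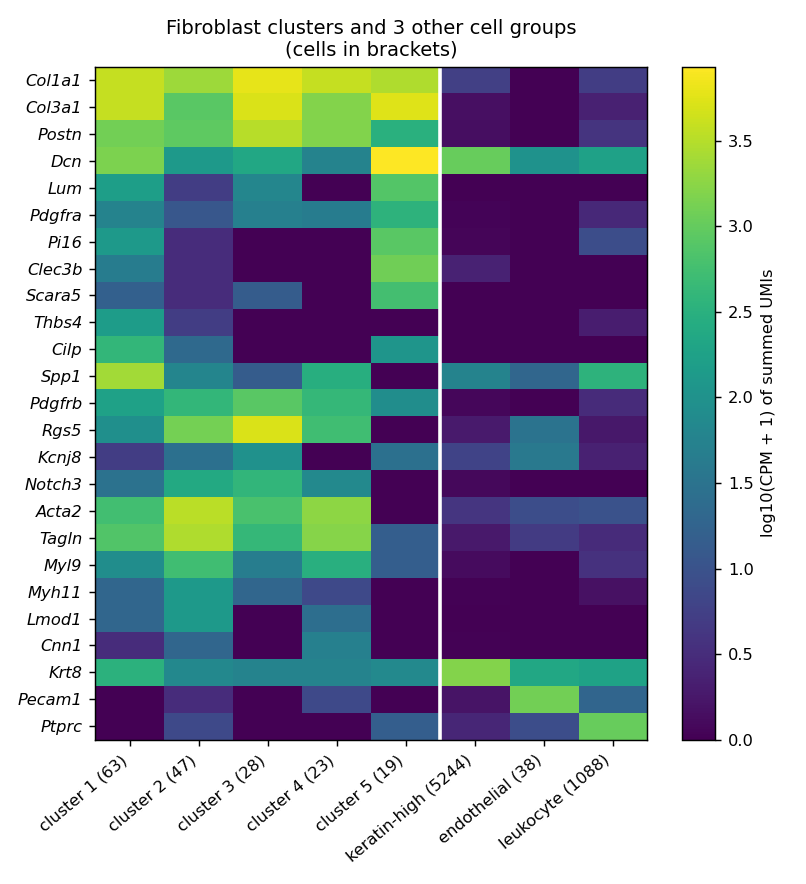
Colours give log10 of CPM plus 1 of summed UMIs for named genes (rows) in the 5 fibroblast clusters and in 3 other groups of tumour cells (columns, cell numbers in brackets). Rgs5 peaks in cluster 3 at 5201 CPM, Dcn in cluster 5 at 8579 CPM, and Col1a1 lies at 4.48 CPM in keratin-high cells.

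Markers of other cell types moved with the division in places. The summed endothelial markers stood at 604 CPM in the Acta2/Tagln-high cells and 127 CPM in the others, of which Flt1 held 591 and 97.2 CPM. Emcn, an endothelial sialomucin, had 11 UMIs in all fibroblasts and Plvap, a protein of endothelial diaphragms, had 2. Fabp4, a fatty acid carrier of adipocytes and capillaries, stood at 1015 against 313 CPM and at 8459 CPM in the endothelial cells, while the adipocyte genes Adipoq, Plin1, Lep and Cidec had no UMI in the fibroblasts. The epithelial and cancer markers stood at 316 CPM in the Acta2/Tagln-high cells and 615 CPM in the others, with Krt8 at 106 against 233 CPM. The leukocyte markers stood at 127 against 84.8 CPM, and 133 of their UMIs lay in 11 cells of cluster 2. The 5 neutrophil markers stood at 71.8 against 8.83 CPM, and 54 of their 60 UMIs lay in 4 cells of cluster 2. Without the cell that held 28 of them, the Acta2/Tagln-high cells stood at 36.5 CPM. The macrophage markers stood at 116 against 90.1 CPM, and at 236 CPM in cluster 2, where 1 cell held 59 of 112 UMIs. Without the cell with the most UMIs of the list on each side, the macrophage markers stood at 39.9 CPM in the Acta2/Tagln-high cells against 63.7 CPM. The leukocyte markers then stood at 73.5 against 62.5 CPM. The 4 haemoglobin genes stood at 69.1 against 205 CPM. In the Acta2/Tagln-high cells 1 cell held 28 of 53 UMIs, and in the others 1 cell held 60 of 116. Without these cells the genes stood at 32.8 against 99.3 CPM. The part of transcripts from other cells in these differences, and in the clusters, was not tested.

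The fibroblasts were then compared with other cells of the tumour. The 12 genes with the highest log2 ratio over all other tumour cells were Sfrp2 (10.20), Fndc1, a fibronectin type III protein, Thbs4, Scn7a, a sodium channel, Svep1, an adhesion protein, Cilp, Mfap2, a microfibril protein, Col3a1, Postn, Fibin, Col1a2 and Slit3, a guidance ligand (8.84). Col3a1 and Col1a2 were used by the rule that chose the fibroblasts, so their place in this ranking follows from the choice. Sfrp2 had UMIs in 35 of 180 cells and Thbs4 in 18. The 3 comparison groups were chosen by Krt8 and Krt18, by Pecam1 and Cdh5 (at least 5 UMIs), or by Ptprc, with fewer than 10 collagen UMIs, so the fibrillar collagens, 7 of 7 at least 2-fold higher than in each, were fixed in part by these limits.

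Among 4024 genes with at least 50 UMIs in the fibroblasts, which leaves out genes particular to the other cells, 24.3% were at least 2-fold higher than in keratin-high cells and 6.81% at least 2-fold lower. The same shares were 16.8% and 7.23% against endothelial cells, and 23.2% and 5.57% against leukocytes. Of the matricellular genes, 22 of 22 were at least 2-fold higher than in keratin-high cells, 18 of 22 than in endothelial cells and 20 of 22 than in leukocytes. Of the inflammatory and complement genes, 25 of 27 were at least 2-fold higher than in keratin-high cells, 21 of 27 than in endothelial cells and 17 of 27 than in leukocytes, where 5 were at least 2-fold lower. Their sum was lower than in leukocytes, at 10515 against 13016 CPM. Of the pericyte genes, 12 of 12 were at least 2-fold higher than in keratin-high cells and in leukocytes, and 10 of 12 than in endothelial cells. Serping1, the C1 inhibitor, stood at 928 CPM in the fibroblasts, 1.98 CPM in keratin-high cells and 1.31 CPM in leukocytes. The basement membrane genes went the other way against endothelial cells, with none of 11 at least 2-fold higher and 6 at least 2-fold lower. All 7 mitotic genes were at least 2-fold lower than in keratin-high cells.

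A few further genes of lipoxygenase and semaphorin signalling were measured. Alox12, the lipoxygenase gene, had no UMI among 1332427, where a floor of 3 counts is 2.25 CPM. Sema3c, a secreted semaphorin, had 46 UMIs in 24 fibroblasts, 18.3 CPM in the Acta2/Tagln-high cells and 56.5 CPM in the others. Its receptor genes Nrp2 and Plxna1 stood at 112 against 44.2 CPM and at 27.4 against 31.8 CPM.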

How the data were processed

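Per the file headers, the deposited matrices are UMI counts, not normalized, written by Cell Ranger 5.0.0. The submitters' processing notes name Cell Ranger 2.1.1 and the mouse genome GRCm38. Tumours of 6 mice were digested with collagenases and hyaluronidase for 10x Genomics libraries. From the counts, UMIs were summed over cells of a group, scaled to CPM and compared as log2 ratios with 0.5 added to each sum. Intervals are exact 95% intervals (Poisson for CPM, Clopper-Pearson for shares, conditional for ratios). PCR copies are merged by UMI, and the intervals cover counting error only. No count model was run. Doublets were marked with Scrublet in scanpy 1.11.5 but kept. The 180 cells were clustered with Leiden on 2000 variable genes, 15 components and 15 neighbours at resolution 0.5. The ratios, their intervals and the 2-fold call were tested on simulated pooled counts, which had no variation between cells. The formula for the share after thinning was checked against random draws for a single case. Members, lists and limits were chosen with earlier results of these data known.

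Named genes were the 12 highest and 12 lowest log2 ratios of the split and the 12 highest over all other tumour cells, each with at least 50 UMIs, a UMI in at least 10% of the fibroblasts and 2-fold also without the cell that holds most of its UMIs (mitochondrial, ribosomal, Gm and Rik genes left out), together with the genes of the lists. Some genes under this rule are not reported here. Where a symbol had 2 identifiers, the one with more UMIs was used. Coordinates come from GENCODE M21. The alternatives were other limits for cells, other limits for Acta2 and Tagln, means of single-cell CPM, thinning to 2000 UMIs and other minimums of UMIs. The lymph node library was used for counts of cells only.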

Additional observations from a re-analysis of the deposited data

How the results depend on the processing

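The number of fibroblasts lay between 133 and 196 under the alternatives that changed it. The 24 genes named for the split kept their direction and 2-fold size in all 212 of their alternatives. They had been chosen as the most extreme ratios in these same cells. A gene was counted only in settings where it kept at least 50 UMIs. The count of 212 is therefore a description and not a test. Beyond their exact intervals moved Myh11 (log2 ratio 6.52 with at least 20 collagen UMIs), Ankrd1 (4.70 under 10 keratin UMIs), Actg2 and Ppp1r14a (4.51 and 4.41 without Rgs5-rich cells), Ppp1r14a (4.43 with 1000 CPM), F3 and Plpp1 (1.89 and 4.16 as single-cell means), Has1 and Sfrp2 (-6.07 and -6.16 with 20 Acta2 and Tagln UMIs) and Dpt (-7.64 after thinning). The share of Acta2/Tagln-high cells was 31.7% with a limit of 20 UMIs and 52.8% with a limit of 1000 CPM. Genes at least 2-fold higher and lower numbered 57 and 92 of 1055 after thinning to 2000 UMIs, which left 165 cells, 53 and 63 of 1054 with at least 200 UMIs, and 1821 and 2126 of 13016 with no minimum. The cause was not tested. The median log2 ratio of the adventitial genes was -1.67 with at least 20 collagen UMIs, -1.79 with an Acta2 and Tagln limit of 20 UMIs, -2.51 as a mean of single-cell CPM, -1.51 after thinning and -2.44 without cells of at least 5 Rgs5 UMIs, and that of the inflammatory genes was -0.95 in the last setting, which was chosen after seeing the data; the cause was not tested. The contractile median stayed between 1.52 and 1.77. The matricellular median of -0.81 was 0.09 after thinning, over 14 genes instead of 22, and that of the basement membrane genes, -0.13, was above 0 in 3 settings, at most 0.16. No other median of the 15 lists turned sign. Depth limits genes at 0 UMIs to 3.91 CPM in the Acta2/Tagln-high cells and 5.30 CPM in the others. No paired analysis was possible because each tissue has 1 library and the comparison lies within 1 of them. For the same reason no replicate could be left out.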

Other observations

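With the fibroblasts included, 235 tumour cells within the limits on genes and mitochondrial UMIs had at least 10 collagen UMIs, of which 9 failed by Ptprc, 8 by Pecam1 and Cdh5 and 42 by the keratins, some by several limits. The 38 cells that failed by the keratins alone had a median of 34 collagen UMIs and 24064 UMIs in all. Scrublet marked 20 of them as doublets, and all 38 had a Dcn UMI. Their median keratin level was 2834 CPM, against 3354 in keratin-high cells and 32.6 in the fibroblasts. Of these 38 cells, 18 had at least 10 Acta2 and Tagln UMIs.

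In the lymph node library, 3 of 11269 cells met the same rule (0.0266%, 0.00549 to 0.0778). They had 26, 88 and 32 collagen UMIs and 6, 1 and 0 UMIs of Acta2 and Tagln. Dcn had 65 and 100 UMIs in the cells with 88 and 32 collagen UMIs and none in the other, and the chemokine gene Ccl19 had 9 UMIs in the cell with 88.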
